A study of Mus musculus with 4 samples.

Results

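The Notch pathway genes examined here were the receptors Notch1, Notch2, Notch3 and Notch4, the ligands Dll1, Dll3, Jag1 and Jag2, the DNA-binding factor Rbpj and the target gene Hes1. They were taken by symbol from a deposited table of gene expression, and all 10 were found among its 22138 genes. The values were RPKM, read numbers scaled to gene length and to library size, so levels of different genes can be set side by side. Their sums ran from 359659 to 390467 over the libraries, and scaling to equal sums was tried as an alternative. The cells were TT2, a female line of mouse embryonic stem cells (C57BL/6xCBA) kept feeder-free in medium with serum and LIF, the cytokine that blocks their differentiation. One group received control siRNA (n = 2) and the other siRNA against Hnrnpk (n = 2), which encodes the RNA- and DNA-binding protein hnRNP K. In both groups the siRNA was given at 100 nM and, after 24 hours, again at 50 nM, and RNA was taken about 72 hours after the second transfection. The series names the replicates biological, and its title places hnRNP K in silencing by the histone methyltransferase SETDB1, so the comparison asks how transcript levels responded to loss of Hnrnpk. The siRNA sequence, the number of siRNAs used and the levels of hnRNP K protein were not analysed here, and both groups were transfected, so no untransfected cells enter the comparison.

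Notch signalling passes between touching cells. A Delta-like or Jagged ligand on 1 cell binds a Notch receptor on its neighbour, ADAM proteases and gamma-secretase then cut the receptor, and the freed intracellular part enters the nucleus, where it joins RBPJ and Mastermind-like coactivators to switch on targets such as the HES and HEY repressors. Without that part, RBPJ recruits corepressors to the same sites. In embryonic stem cells the pathway is known mainly for its role as cells leave pluripotency, where it favours neural fates, and HES1 is also known to be driven by signals other than Notch.

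Depth, replicates and labels were checked first. Relative depth came from the most frequent ratio between a library's low values and those of control replicate 1, which was set to 1. It was 0.982 in control replicate 2 and 0.891 and 0.882 in Hnrnpk siRNA replicates 1 and 2. Depth thus differed with the groups, and its part in the calls was not tested. Library totals came from the most frequent step in low values of single-exon genes. With those totals and annotated exon lengths, the least covered member, Dll1, rested on about 400 units (reads or read pairs) in its lowest library. That number is an approximation. Pearson's r of log2(RPKM + 0.5) across the 12486 genes tested was 0.997 within control siRNA and 0.999 within Hnrnpk siRNA, against 0.955 to 0.960 between the groups. Hnrnpk itself measured 236 and 226 RPKM with control siRNA and 68.0 and 70.5 RPKM with its own siRNA, the direction the labels call for. Embryonic stem cell markers (Pou5f1, Sox2, Nanog, Zfp42 and Esrrb) were high in every library, with summed levels of 1292 to 1364 RPKM after control siRNA and 1381 to 1432 RPKM after Hnrnpk siRNA. Within that sum Nanog was called higher (197 ± 9.49 and 348 ± 8.13 RPKM, SD, n = 2 each, limma adjusted p = 6.56e-06) and Sox2 lower (213 ± 25.6 and 146 ± 0.916 RPKM, SD, n = 2 each, limma adjusted p = 0.000337), and their part in the values below was not tested. Fibroblast markers summed to 4.04 to 9.46 RPKM over all libraries.

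All 10 members averaged 0.5 RPKM or more across libraries, the minimum for testing. In limma's test of all 12486 genes, with Benjamini-Hochberg adjustment and an adjusted p under 0.05, 9 of the 10 were called. Rbpj, Hes1 and Dll1 rose, Notch1, Notch2, Notch4, Dll3, Jag1 and Jag2 fell, and Notch3 was not called. The background was high: 67.2% of all genes tested were called, 32.2% higher and 35% lower. That was 4025 higher and 4371 lower, against 3291 and 5156 when libraries were scaled to the same sum. For each of the 9, both Hnrnpk siRNA libraries lay on the same side of both control libraries, as they did for 84.7% of all genes tested. The median log2 difference of the members was -0.33, against -0.015 over all genes tested. Hes1, Jag2, Jag1 and Dll3, 4 of the 10, were called with a difference of 0.5 or more on the log2 scale, and a call of that size by 31.7% of all genes. With 2 libraries a group, an exact permutation test of 1 gene cannot give a p below 0.333, so the calls rest on the variance that limma pools over genes.

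**Figure D1:**
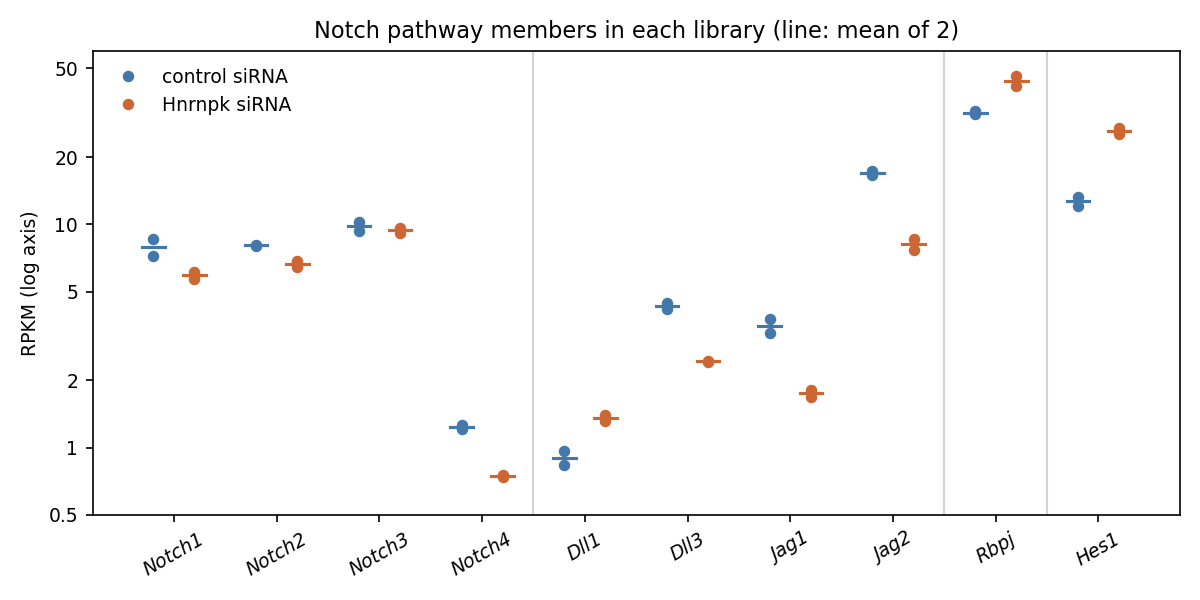
RPKM on a log axis (vertical) of the 10 members (horizontal: receptors, ligands, Rbpj and Hes1, separated by grey lines) in each of the 4 libraries, with control siRNA in blue, Hnrnpk siRNA in orange and a line at the mean of the 2 replicates. Groups are apart for every member but Notch3; Hes1 moves from about 12.7 to 26.1 RPKM and Jag2 from 17.0 to 8.15 RPKM.

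The 4 receptors are single-pass membrane proteins that are cut on ligand binding, and none of them was called higher. Notch1 (ENSMUSG00000026923, GRCm38 chromosome 2, 26457903 to 26516663, minus strand) was at 8.63 and 7.25 RPKM in control replicates 1 and 2 and at 6.10 and 5.72 RPKM in Hnrnpk siRNA replicates 1 and 2. The control libraries differed from each other more than the others did, but the groups did not overlap. Its mean went from 7.94 ± 0.977 to 5.91 ± 0.266 RPKM (SD, n = 2 each), 25.6% lower, with a log2 difference of -0.39 (SE 0.0931, limma adjusted p = 0.00417). A pair of noncoding genes on the opposite strand, 0610009E02Rik and Gm13568, overlap 7.50% and 2.91% of the annotated Notch1 exons. Likewise Gm17276, on the opposite strand, overlaps 6.03% of the Notch3 exons, and Gm42820, on the same strand, 5.02% of the Notch2 exons. Whether reads kept their strand is unknown here, and reads from such partners could not be told apart.

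Notch2 (ENSMUSG00000027878, chromosome 3, 98013527 to 98150361, plus strand) was at 8.12 and 7.99 RPKM after control siRNA and at 6.88 and 6.44 RPKM after Hnrnpk siRNA. This was the smallest of the called changes, 17.4% lower, with a log2 difference of -0.26 (SE 0.0753, limma adjusted p = 0.0123). The call was lost without Hnrnpk siRNA replicate 2 (adjusted p = 0.133) and when each library's trend on GC content was removed (-0.18, adjusted p = 0.0537). Over all alternatives its adjusted p ran from 0.00298 to 0.133.

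Notch3 (ENSMUSG00000038146, chromosome 17, 32120820 to 32166852, minus strand) was the receptor with the highest level in both groups. It was at 10.3 and 9.36 RPKM after control siRNA and at 9.67 and 9.16 RPKM after Hnrnpk siRNA, so the groups overlapped. The log2 difference of -0.058 (limma adjusted p = 0.529) had a 95% interval from -0.23 to 0.12. It turned to 0.13 with GC trends removed and to 0.0079 without control replicate 1.

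Notch4 (ENSMUSG00000015468, chromosome 17, 34564268 to 34588503, plus strand), known mainly from endothelial cells, was the lowest receptor. It stood at 1.21 and 1.26 RPKM after control siRNA and at 0.742 and 0.755 RPKM after Hnrnpk siRNA. The replicates lay close together and the groups apart, with a mean 39.4% lower and a log2 difference of -0.47 (SE 0.0921, limma adjusted p = 0.00132). That value depended on the processing: it was -0.24 with GC trends removed and -0.65 with 0.1 in place of 0.5 RPKM added before the log. Among endothelial markers, Kdr and Cdh5 were below 0.5 RPKM in every library, while Tek and Pecam1, the latter also expressed by embryonic stem cells, were called higher. The endothelial list summed to 40.0 to 42.4 RPKM after control siRNA and 54.4 to 55.8 RPKM after Hnrnpk siRNA. Most of that sum was Pecam1, with means of 37.4 and then 49.4 RPKM. The part of these markers in the Notch4 value was not tested.

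The ligands carried the larger falls. Jag2 (ENSMUSG00000002799, chromosome 12, 112907819 to 112929776, minus strand), a Jagged ligand, was the highest ligand in every library. It was at 17.3 and 16.7 RPKM after control siRNA and at 7.68 and 8.62 RPKM after Hnrnpk siRNA. The mean went from 17.0 ± 0.430 to 8.15 ± 0.663 RPKM (SD, n = 2 each), a ratio of control to Hnrnpk siRNA of 2.08 and a log2 difference of -1.02 (SE 0.0771, limma adjusted p = 3.72e-06). Only 8.51% of all genes tested were called with a log2 difference of at least 1 in size, and among the members Jag2 and Hes1 reached it. Both lay close to that limit. Jag2 was at -0.77 with GC trends removed and -0.97 with 1 RPKM added, and Hes1 at 0.93 with libraries scaled to the same sum and 0.99 with 1 RPKM added. Leaving out control siRNA replicate 1 or Hnrnpk siRNA replicate 1 also took Jag2 under it (-0.99 and -0.94), and leaving out control siRNA replicate 2 or Hnrnpk siRNA replicate 2 took Hes1 under it (0.95 and 0.97).

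Jag1 (ENSMUSG00000027276, chromosome 2, 137081456 to 137116644, minus strand), the other Jagged ligand, was at 3.76 and 3.28 RPKM after control siRNA and at 1.81 and 1.69 RPKM after Hnrnpk siRNA. Both Hnrnpk siRNA libraries were well below both controls. The ratio of control to Hnrnpk siRNA was 2.01 and the log2 difference -0.83 (SE 0.0944, limma adjusted p = 4.32e-05). Jag1 started from a lower level than Jag2, and whether their changes differ was not tested.

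Dll3 (ENSMUSG00000003436, chromosome 7, 28293553 to 28302238, minus strand) encodes a divergent Delta-like protein that is known to act within the cell that makes it and to dampen signalling there. It was at 4.45 and 4.16 RPKM after control siRNA and at 2.45 and 2.43 RPKM after Hnrnpk siRNA. It was lower by 43.4%, with a log2 difference of -0.71 (SE 0.0837, limma adjusted p = 5.59e-05). With GC trends removed that difference was -0.48, under 0.5 in size.

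Dll1 (ENSMUSG00000014773, chromosome 17, 15367354 to 15376872, minus strand), an activating Delta-like ligand, went the other way from the lowest control level of any member. It was at 0.968 and 0.833 RPKM after control siRNA and at 1.40 and 1.32 RPKM after Hnrnpk siRNA. The means differed by a ratio of 1.51, with a log2 difference of 0.41 (SE 0.0969, limma adjusted p = 0.00412). Without Hnrnpk siRNA replicate 1 the call was lost (0.38, adjusted p = 0.0524), over a range of adjusted p from 0.000352 to 0.0524 among all alternatives. The noncoding gene A930024N18Rik, on the opposite strand, overlaps 20.6% of the annotated Dll1 exons, and reads from it could not be told apart from those of Dll1.

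**Figure D2:**
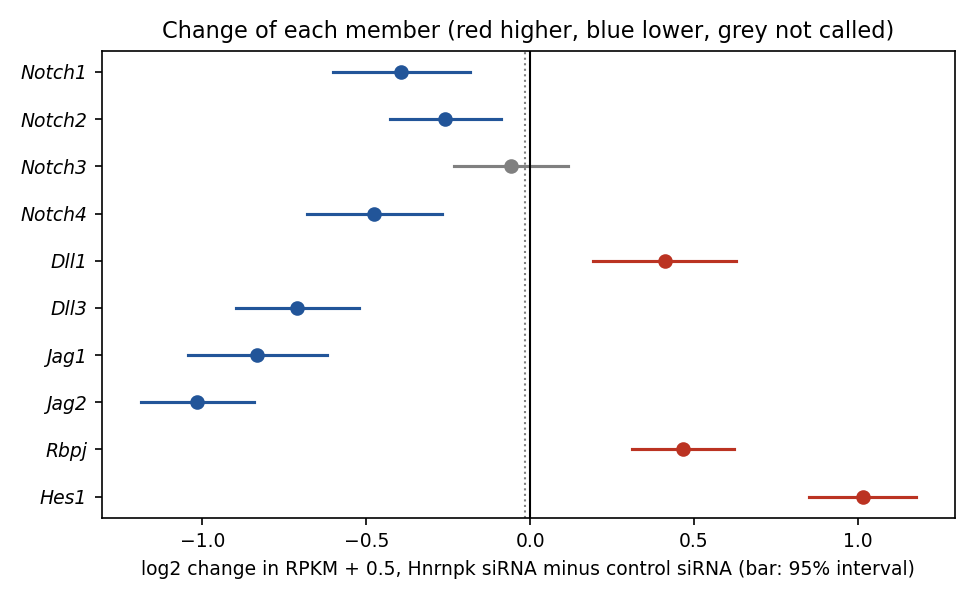
Log2 change in RPKM + 0.5 (horizontal, Hnrnpk siRNA minus control siRNA) of each member (vertical), with points for limma's estimate, bars for its 95% interval and a dotted line at the median of all genes tested (-0.015). Points in red were called higher, in blue lower and in grey not called; Hes1 (1.01) and Jag2 (-1.02) lie farthest out on the 2 sides.

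Summed over the 4 ligands, the level went from 25.7 ± 1.07 to 13.7 ± 0.507 RPKM (SD, n = 2 each), a fall to 0.533 of the control level. Summed over the 4 receptors it went from 27.1 ± 1.70 to 22.7 ± 0.932 RPKM, or to 0.840 of the control level. Receptors and ligands were thus at about the same summed level after control siRNA, and the ligands were lower after Hnrnpk siRNA. Jag2 made up 65.3% and 66.8% of the ligand sum with control siRNA and 57.6% and 61.3% with Hnrnpk siRNA, while the share of Dll1 went from 3.66% and 3.34% to 10.5% and 9.40%. Among receptors the share of Notch3 went from 36.4% and 36.2% to 41.3% and 41.5%. These sums are descriptions and were not tested. In bulk RNA, fewer cells that express a gene and less RNA per cell cannot be told apart.

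**Figure D3:**
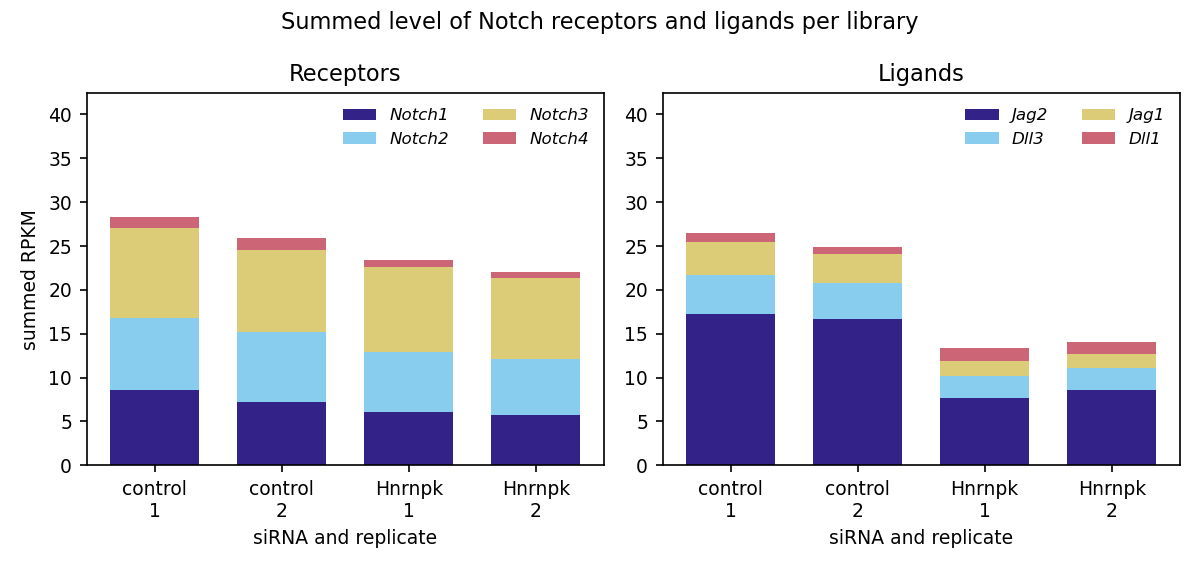
Summed RPKM (vertical, from 0) of the 4 receptors (left) and of the 4 ligands (right) in each library (horizontal), with 1 colour per gene. Ligand sums are 26.5 and 24.9 RPKM in the control libraries and 13.3 and 14.1 RPKM after Hnrnpk siRNA, and most of the drop is in Jag2.

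Rbpj (ENSMUSG00000039191, chromosome 5, 53466152 to 53657362, plus strand) encodes the factor that binds DNA at Notch targets with or without Notch. It had the highest level of the members in both groups. It was at 31.2 and 32.2 RPKM after control siRNA and at 46.3 and 41.8 RPKM after Hnrnpk siRNA. Both Hnrnpk siRNA libraries were above both controls, and the mean went from 31.7 ± 0.665 to 44.0 ± 3.17 RPKM (SD, n = 2 each), a ratio of 1.39 and a log2 difference of 0.47 (SE 0.0693, limma adjusted p = 0.000250). Part of this signal cannot be placed. A processed pseudogene on chromosome 6, listed as Rbpsuh-rs3 and now called Rbpj-ps3, shares 1441 bases (26.3%) of the longest protein-coding Rbpj transcript at 95% identity or more. It was listed at 22.2 and 23.4 RPKM after control siRNA and at 31.5 and 27.6 RPKM after Hnrnpk siRNA, a log2 difference of 0.36 (limma adjusted p = 0.00225). The labels and table do not say to which locus shared reads were assigned, which makes both levels uncertain. Both were called higher.

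Hes1 (ENSMUSG00000022528, chromosome 16, 30064384 to 30067796, plus strand) encodes a transcriptional repressor and is the classical target of Notch. It was at 13.3 and 12.1 RPKM after control siRNA and at 25.3 and 27.0 RPKM after Hnrnpk siRNA. The groups were far apart compared with the distance between replicates. The mean went from 12.7 ± 0.800 to 26.1 ± 1.20 RPKM (SD, n = 2 each), a ratio of 2.06 and a log2 difference of 1.01 (SE 0.0727, limma adjusted p = 2.63e-06). Over all alternatives the log2 difference ran from 0.93 to 1.08. Of all genes tested, 91.8% changed by less in size. The 3 genes of the table whose log2(RPKM + 0.5) stayed closest to that of Hes1 over the 4 libraries were Foxo3, Prcp and Aldh4a1, with a largest difference of 0.139, 0.154 and 0.159 from Hes1 in any library.

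In order of level after control siRNA, the members were Rbpj, Jag2, Hes1, Notch3, Notch2, Notch1, Dll3, Jag1, Notch4 and Dll1. The libraries of Notch2 and Notch1 overlapped, and those of the other neighbours did not. After Hnrnpk siRNA the order was Rbpj, Hes1, Notch3, Jag2, Notch2, Notch1, Dll3, Jag1, Dll1 and Notch4, with no overlap between neighbours. Jag2 had moved from the second place to the fourth, below Notch3, and Dll1 and Notch4 had changed places. The range of levels was wide, from 0.900 to 31.7 RPKM after control siRNA and from 0.749 to 44.0 RPKM after Hnrnpk siRNA.

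Promoter sequence was available from RefSeq (GRCm38.p6) for 9 of the 10 members, as 11 windows of the 250 bases before an annotated start, and not for Hes1. These windows were searched on both strands for letters that match the core site of RBPJ (TGGGAA), the N box bound by HES repressors (CACNAG), the class C site bound by HES and HEY repressors (CACGCG) and an E box (CACGTG). Shown here are a pair of members that moved in opposite directions, Rbpj and Jag1, and a pair of receptors of which 1 was called and 1 was not, Notch1 and Notch3, each only as far as the window lies outside annotated exons. Matches are in capitals, and each sequence reads 5′ to 3′ on the strand of the gene.
Rbpj: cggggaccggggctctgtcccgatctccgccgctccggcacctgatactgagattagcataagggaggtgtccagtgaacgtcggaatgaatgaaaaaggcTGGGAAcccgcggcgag
Jag1: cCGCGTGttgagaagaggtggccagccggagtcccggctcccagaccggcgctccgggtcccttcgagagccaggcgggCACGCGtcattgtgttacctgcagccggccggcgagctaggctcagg
Notch1: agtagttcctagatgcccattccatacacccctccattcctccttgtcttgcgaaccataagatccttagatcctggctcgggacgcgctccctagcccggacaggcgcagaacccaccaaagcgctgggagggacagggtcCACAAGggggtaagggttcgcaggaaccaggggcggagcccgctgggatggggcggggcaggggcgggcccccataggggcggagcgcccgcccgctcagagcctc
Notch3: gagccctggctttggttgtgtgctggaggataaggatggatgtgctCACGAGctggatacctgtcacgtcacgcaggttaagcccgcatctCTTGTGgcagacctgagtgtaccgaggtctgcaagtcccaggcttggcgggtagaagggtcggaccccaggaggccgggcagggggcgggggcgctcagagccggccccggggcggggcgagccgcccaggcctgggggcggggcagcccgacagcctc

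The Rbpj stretch is chr5:53590096-53590213 (plus strand), and its capitals are the RBPJ core, 149 bases before the start. The Jag1 stretch is chr2:137116645-137116770 (minus strand), and its capitals are class C sites, 249 and 171 bases before the start. The Notch1 stretch is chr2:26503825-26504072 (minus strand) with 1 N box, 108 bases before the start. The Notch3 stretch is chr17:32166891-32167140 (minus strand) with N boxes 204 and 159 bases before the start. The Rbpj and Notch1 stretches lie inside the gene spans given above.

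Among the 11 member windows, 2 held the RBPJ core, both of them overlapping windows of Rbpj, against 21.6% of all 32851 promoter windows of that length. An N box was in 3 windows (Notch1, Notch2 and Notch3), against 36.7% of all. A class C site was in 3 windows (Jag1, Notch2 and 1 of Dll1), against 7.62% of all, and no window held the E box, which 6.02% of all did. The G and C content of the windows ran from 52.0% in Dll3 to 87.2% in Jag2, where the median of all windows was 52.4%. The windows of Dll1, Dll3 and Jag2 and 1 of Rbpj lay wholly within annotated exons, so their matches and base content are those of exons. These are matches of letters and do not show that a factor binds there.

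The wider pathway was followed in a list of 68 genes set by role, of which 55 passed the filter. In limma's test 17 of the 55 were called higher and 23 lower, 72.7% in all, close to the 67.2% of all genes tested, and their median log2 difference of -0.028 was close to the -0.015 of all genes. The split depended on scaling, with 11 higher and 25 lower when libraries were scaled to the same sum and 20 higher and 17 lower with GC trends removed. Leaving out Hnrnpk siRNA replicate 1 left 11 higher and leaving out Hnrnpk siRNA replicate 2 left 15 lower. The roles within the list are described in turn. Their counts are to be read beside the 32.2% of all genes tested that were called higher and the 35% called lower. No count of a role was tested.

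**Figure D4:**
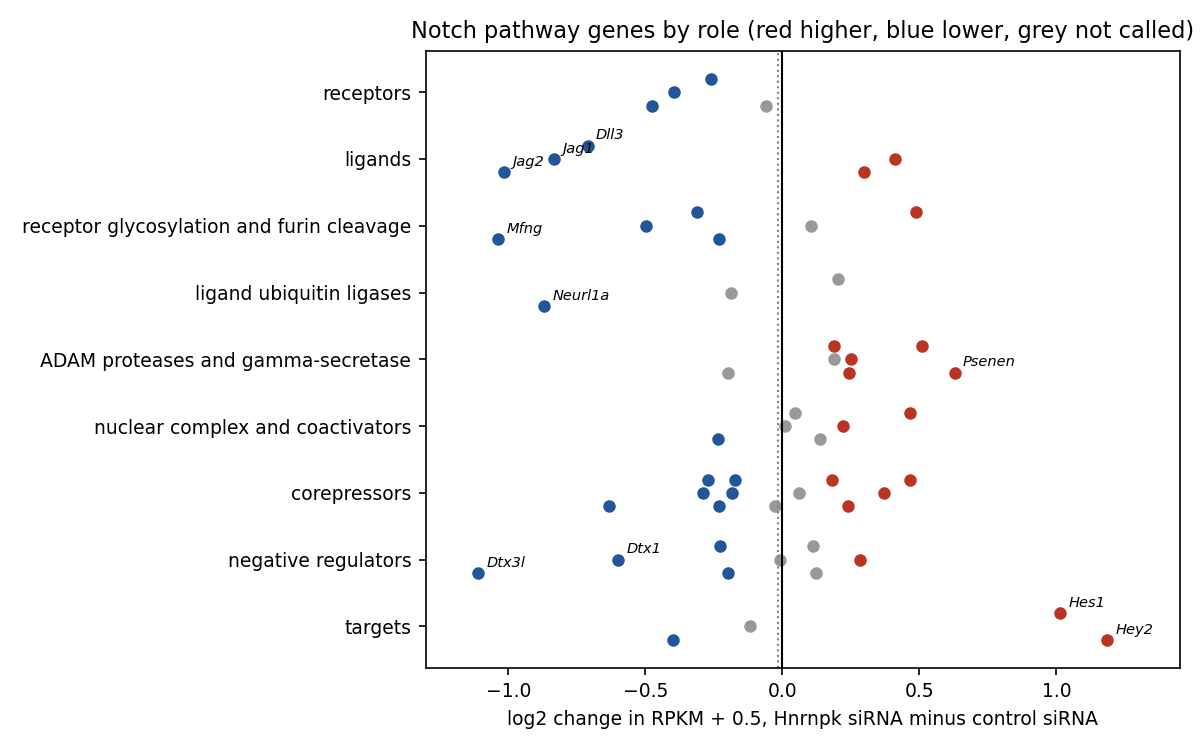
Log2 change in RPKM + 0.5 (horizontal, Hnrnpk siRNA minus control siRNA) of the 55 Notch pathway genes tested, by role (vertical; spread within a row only separates points), with red for genes called higher, blue lower and grey not called, and a dotted line at the median of all genes tested. Names mark 10 of the called genes with a difference of 0.5 or more in size, among them Dtx3l, Mfng, Jag2 and Neurl1a on the lower side and Hes1, Hey2 and Psenen on the higher side.

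Among enzymes that add sugars to the receptor or process it on the way to the surface, 1 of 6 was called higher and 4 lower. Of the lower calls, that of Pofut1 held in 9 of 14 alternatives and that of Furin in 8 of 14. Mfng, a Fringe glycosyltransferase that alters which ligands a receptor responds to, was at 6.00 and 4.75 RPKM after control siRNA and at 2.25 and 2.45 RPKM after Hnrnpk siRNA, with a log2 difference of -1.04 (SE 0.110, limma adjusted p = 2.82e-05). Rfng, a second Fringe, was at 37.9 ± 0.550 RPKM with control and 26.7 ± 0.238 RPKM with Hnrnpk siRNA (SD, n = 2 each; log2 difference -0.50). Poglut1, which adds glucose to the receptor, was at 36.0 ± 3.27 RPKM with control and 50.6 ± 2.05 RPKM with Hnrnpk siRNA (SD, n = 2 each; log2 difference 0.49). Rfng, Poglut1, Pofut1 and Furin were picked after their values were seen.

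Of the ubiquitin ligases that drive the uptake of ligands in the sending cell, 1 of 3 tested was called, and it was lower. Neurl1a, a mouse Neuralized gene, was at 9.88 and 7.55 RPKM after control siRNA and at 4.32 and 4.69 RPKM after Hnrnpk siRNA, with a log2 difference of -0.87 (SE 0.115, limma adjusted p = 0.000116).

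Of the proteases that cut the receptor, 5 of 7 tested were called higher, against 32.2% of all genes, and none lower. The calls of Adam10 and Adam17, which make the first cut, were lost when libraries were scaled to the same sum (adjusted p = 0.117 and 0.237), with GC trends removed (0.0889 and 0.0634) and without control siRNA replicate 2, Hnrnpk siRNA replicate 1 or Hnrnpk siRNA replicate 2, and that of Adam10 also without a filter. The gamma-secretase subunits Aph1b and Aph1c were under the minimum for testing, with ratios of Hnrnpk siRNA to control of 0.399 and 0.550. Adam10, Adam17, Aph1b and Aph1c were picked after their values were seen. The median log2 difference of the 7 tested genes was 0.24. Psenen, a subunit of gamma-secretase, was at 11.5 and 8.70 RPKM after control siRNA and at 15.8 and 15.7 RPKM after Hnrnpk siRNA, a log2 difference of 0.63 (SE 0.111, limma adjusted p = 0.000739). Ncstn, the subunit that receives the substrate, picked after its values were seen, was at 36.9 ± 0.533 RPKM with control and 43.8 ± 0.152 RPKM with Hnrnpk siRNA (SD, n = 2 each; log2 difference 0.24).

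In the nuclear complex, 2 of 6 tested genes were called higher and 1 lower, and Rbpj had the largest change. Among corepressors, 4 of 12 were called higher and 6 lower. Spen, which links RBPJ to corepressors, and Cir1, a corepressor of RBPJ, were picked after their values were seen and rose, with log2 differences of 0.37 and 0.47. Ctbp1 and Tle1, also picked after their values were seen, were among the 6 called lower, with log2 differences of -0.29 and -0.27.

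Among negative regulators, 1 of 8 tested was called higher and 4 lower. The largest change was in Dtx3l, a ubiquitin ligase of the Deltex family known mainly from DNA repair, which was at 6.51 and 6.79 RPKM after control siRNA and at 2.85 and 2.78 RPKM after Hnrnpk siRNA (log2 difference -1.11, SE 0.0795, limma adjusted p = 2.63e-06). Dtx1, a Deltex protein that binds the receptor, was at 7.33 ± 0.930 RPKM with control and 4.65 ± 0.0594 RPKM with Hnrnpk siRNA (SD, n = 2 each). Its log2 difference was -0.60, and -0.34 with GC trends removed.

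The targets did not move as a block. Of 8 listed, 4 passed the filter; Hes1 and Hey2 were called higher, Nrarp lower, and Hey1 was not called. Hey2, a repressor related to Hes1, was at 0.361 and 0.254 RPKM after control siRNA and at 1.25 and 1.41 RPKM after Hnrnpk siRNA, a ratio of 4.33 and a log2 difference of 1.18 (SE 0.107, limma adjusted p = 1.08e-05); the added 0.5 RPKM makes that log2 difference smaller than the ratio. Hey2 passed the filter through the Hnrnpk siRNA group alone, so its call was favoured by the filter. Nrarp, a feedback inhibitor that Notch switches on, was at 2.33 ± 0.392 RPKM with control and 1.64 ± 0.0287 RPKM with Hnrnpk siRNA (SD, n = 2 each; log2 difference -0.40, limma adjusted p = 0.00859), a difference of -0.26 without control siRNA replicate 1 and a call lost without Hnrnpk siRNA replicate 2 (adjusted p = 0.0588) and when no filter was used (adjusted p = 0.0525). Hey1 was at 3.36 and 2.59 RPKM after control siRNA and at 2.77 and 2.59 RPKM after Hnrnpk siRNA, and was called lower only without control siRNA replicate 2 (-0.28, adjusted p = 0.0128). Hes5, the target most tied to neural progenitors, was not tested: it was listed at 0.686 and 0.543 RPKM after control siRNA and at 0.333 and 0.120 RPKM after Hnrnpk siRNA. Nrarp, Hey1 and Hes5 were picked after their values were seen.

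Markers of other lineages that use Notch or HES factors moved with the groups, and their part in the values of the members was not tested. Beside their counts stand the 32.2% of all genes tested that were called higher and the 35% called lower. Neural progenitor markers, 5 of 6 of which were found, summed to 4.52 to 5.07 RPKM after control siRNA and 2.35 to 2.53 RPKM after Hnrnpk siRNA, with both tested markers (Pax6 and Nes) lower and Neurog2 and Pax3 below 0.5 RPKM in every library. Primitive endoderm markers summed to 14.3 to 15.0 RPKM and then to 40.2 to 40.8 RPKM, with 5 of 6 tested called higher. Among those 5, Pdgfra had means of 0.170 and then 0.898 RPKM. It met the minimum for testing through the knockdown group alone, so the filter favoured its call. Trophectoderm markers, 6 of 7 of which were found, summed to 29.0 to 34.7 RPKM and then to 63.5 to 67.9 RPKM. Of those tested, 4 of 4 were called higher. Most of that sum was in the keratins Krt8 (means of 12.3 and then 22.4 RPKM) and Krt18 (17.4 and then 32.0 RPKM). Of those not tested, Cdx2 was higher (means of 0.234 and then 0.740 RPKM) and Elf5 lower (0.107 and then 0.0656 RPKM). Mesoderm markers summed to 3.33 to 3.42 RPKM and then to 7.05 to 7.45 RPKM, with 2 of 3 tested called higher. Most of that rise was in Eomes (means of 1.32 and then 5.16 RPKM), which is also in the trophectoderm list. Tbx6 was not called, and Mesp1, which was not tested, was lower (means of 0.473 and then 0.213 RPKM). Fibroblast markers summed to 7.99 to 9.46 RPKM and then to 4.04 to 4.22 RPKM, with 2 of 2 tested called lower. No marker found in the table was at 0 in all 4 libraries.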

How the data were processed

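Expression was measured by RNA-seq in 4 libraries, for which the labels give both removal of rRNA and poly(A) selection. The authors deposited RPKM per gene in 1 table with a column per library. BWA, SAMtools and build mm9 are named in the submitters' processing notes; the counting tool, the annotation and any strand information were not given in the sources used here. Positions and exon lengths came from GENCODE M21 (GRCm38) by Ensembl identifier, found for 92.8% of 22138 genes, and so are not those of the authors' mapping.

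RPKM values are not counts, so log2(RPKM + 0.5) was tested with limma 3.58.1 in R 4.3.3 (mean-variance trend, two-sided, 7.47 prior degrees of freedom). The 12486 genes averaging 0.5 RPKM or more were tested together with Benjamini-Hochberg adjustment, and called at an adjusted p under 0.05. The added value makes differences of low genes look smaller. The procedure was also run on simulated data. Few genes changed there, and no difference in depth or library sums between groups was simulated. That setting is unlike these data, so the calls do not rest on it. Shared transcript sequence was found with BLAST 2.17.0 (95% identity, at least 100 bases). Alternatives were the added value, the filter, scaling, GC trends, the limma trend, a replicate block and leaving out each library.

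The members and gene lists were chosen with earlier results of these data known. Text names all members, Hnrnpk, every pathway gene called with a log2 difference of 0.5 or more in size, the most changed called gene of each role and the 3 genes closest to Hes1; other names were picked after their values were seen. Some genes that this rule takes are not reported here.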

Additional observations from a re-analysis of the deposited data

How the results depend on the processing

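Over 14 alternatives, 134 of 139 log2 differences of the members kept their direction and their side of the threshold. Notch4 has no value at a filter of 1 RPKM, where it was not tested. Notch3, not called in any of them, turned to 0.13 with GC trends removed and to 0.0079 without control siRNA replicate 1. Notch2 lost its call with GC trends removed (-0.18). Without 1 library at a time the log2 difference of Notch2 ran from -0.30 to -0.21, that of Notch3 from -0.12 to 0.0079 and that of Dll1 from 0.34 to 0.48, and the calls lost were those of Notch2 without Hnrnpk siRNA replicate 2 and of Dll1 without Hnrnpk siRNA replicate 1. Scaling to the same sum moved the members' median log2 difference to -0.41 and that of the 55 pathway genes to -0.12, and left 11 pathway genes called higher; removing GC trends moved the members' median to -0.21, and using no filter moved the pathway median to -0.10. Without 1 library at a time the pathway genes called higher numbered 11 to 17, those called lower 15 to 22, and their median ran from -0.12 to 0.0079. The cause of these shifts was not tested. For 38 other genes looked at, 482 of 529 values kept direction and call, 39 lost and 6 gained a call, and 2 turned: Hey1, not called, was 0.042 without control siRNA replicate 1 (-0.28 without control siRNA replicate 2), and Lfng, not called, -0.014 without Hnrnpk siRNA replicate 2 (0.23 without Hnrnpk siRNA replicate 1). Leaving out a library leaves 1 in its group, which is then assumed to vary like the other group.

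The replicate numbers are shared between the groups, but the labels do not say that they mark a common culture or day. The deviations of same-numbered libraries correlated at 0.027 across genes. With the replicate block, 3 members were called higher and 6 lower, as without it, with 4162 of all genes called higher and 4460 lower, and no member's call changed.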

Other observations

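A few gene groups next to the pathway, listed after the values of the members had been seen, were also looked up. Id proteins bind basic helix-loop-helix factors and keep them off DNA, and in embryonic stem cells they are known as targets of BMP signalling. Of the 4 Id genes, 3 were called higher by limma and none lower, against 32.2% and 35% of all genes tested. Id2 was at 7.31 and 8.88 RPKM after control siRNA and at 36.0 and 36.7 RPKM after Hnrnpk siRNA. Its log2 difference of 2.11 was larger than that of any Notch pathway gene tested. As a ratio it was 4.49, near the 4.33 of Hey2, whose log2 difference the added 0.5 RPKM makes smaller. Id1 and Id3 had log2 differences of 1.12 and 1.36, with control libraries that differed from each other (16.7 and 25.8 RPKM for Id1, 23.2 and 33.0 RPKM for Id3) but did not reach the Hnrnpk siRNA libraries (42.0 and 50.1 RPKM, and 67.2 and 76.5 RPKM). Id4, at 1.77 and 1.47 RPKM after control siRNA and 1.85 and 1.97 RPKM after Hnrnpk siRNA, was not called, but was called without control siRNA replicate 1 and under quantile normalization.

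Other relatives of Hes1 were looked up too. Hes6, which is known to oppose HES1, was at 14.6 and 13.2 RPKM after control siRNA and at 9.38 and 9.52 RPKM after Hnrnpk siRNA, a log2 difference of -0.53, while Bhlhe41 was at 0.296 and 0.191 RPKM and then at 0.877 and 0.902 RPKM, a log2 difference of 0.91. Bhlhe41 reached the minimum for testing only through its Hnrnpk siRNA libraries, so its call was favoured by the filter. Of 4 tested genes described as non-canonical Notch ligands, 1 was called higher and 3 lower, against 32.2% and 35% of all genes. The one that rose was Dner, known from neurons, which was at 0.569 and 0.421 RPKM after control siRNA and at 1.22 and 1.20 RPKM after Hnrnpk siRNA, a log2 difference of 0.78. Its control mean was 0.495 RPKM, so it too was tested only through the Hnrnpk siRNA group. Among ligands outside the 10 members, Dll4, an activating Delta-like ligand, was at most 0.0324 RPKM in any library, and Dlk1, a Delta-like protein that lacks the domain needed to activate the receptor, had a log2 difference of 0.30, a call lost without control siRNA replicate 1, Hnrnpk siRNA replicate 1 or Hnrnpk siRNA replicate 2, without a filter and when libraries were scaled to the same sum.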
